A study of Homo sapiens with 6 samples.

Results

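Ribosomal protein genes were examined in RNA-seq libraries of ARPE-19, an established human retinal pigment epithelial (RPE) cell line. Members were taken by gene symbol: RPL, RPS and RPLP symbols for the cytosolic ribosome and MRPL and MRPS symbols for the mitochondrial one, with processed pseudogenes left out. This gave 161 members of 33496 gene rows, of which 83 were cytosolic and 78 mitochondrial. The wild-type cells of all 6 libraries were exposed to 5 μM erastin for 24 h; erastin inhibits the import of cystine and so sets off ferroptosis. In 3 libraries it was the only agent (Era), and in the other 3 it followed 1 h of pretreatment with 10 μM vitamin K1, VK1 (Era+VK). Untreated cells were not analysed here, so each comparison is between cells that all carry the erastin treatment. The question was whether VK1 pretreatment changed the transcripts of either ribosome in cells under ferroptotic stress. The labels do not say whether the 3 libraries of a group came from separate cultures, so p-values measure the spread between these libraries, which may be technical.

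A ribosome has a small subunit, which reads the mRNA, and a large subunit, which joins amino acids. The cytosolic ribosome translates nuclear-encoded mRNAs, and its proteins must be made in matched amounts to assemble with ribosomal RNA in the nucleolus. The mitochondrial ribosome translates the few mRNAs of the mitochondrial genome, while its proteins are encoded in the nucleus and imported. Most mRNAs of cytosolic ribosomal proteins open with a cytosine and a run of pyrimidines, the 5′ terminal oligopyrimidine (TOP) motif, through which mTORC1 and LARP1 control their translation and stability. RPE cells phagocytose photoreceptor outer segments and secrete many proteins, and so have a steady need for protein synthesis.

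The annotated starts of 14 members are shown, with and without TOP letters, and with some parents beside their paralogs. Sequences are from RefSeq on GRCh38.p14, read 5′ to 3′ from 10 bases before the annotated start through the first 20 transcribed bases, which lie in the first exon. Capitals mark the pyrimidine run at the start, where a C is followed by at least 4 bases that are each C or T.
RPS6 (chr9:19380217-19380246, minus strand): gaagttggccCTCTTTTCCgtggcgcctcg
RPLP0 (chr12:120201092-120201121, minus strand): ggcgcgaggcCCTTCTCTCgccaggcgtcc
RPLP2 (chr11:809957-809986, plus strand): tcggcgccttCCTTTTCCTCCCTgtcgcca
RPL13A (chr19:49487598-49487627, plus strand): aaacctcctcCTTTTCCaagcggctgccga
RPL22 (chr1:6199576-6199605, minus strand): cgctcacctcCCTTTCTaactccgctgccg
RPL22L1 (chr3:170870176-170870205, minus strand): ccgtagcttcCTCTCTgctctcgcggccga
RPL26 (chr17:8383174-8383203, minus strand): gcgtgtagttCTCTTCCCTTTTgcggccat
RPL26L1 (chr5:172958719-172958748, plus strand): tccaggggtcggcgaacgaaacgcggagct
RPS27 (chr1:153990752-153990781, plus strand): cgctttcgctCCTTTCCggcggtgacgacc
RPS27L (chr15:63157458-63157487, minus strand): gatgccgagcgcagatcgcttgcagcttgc
RPL7L1 (chr6:42879606-42879635, plus strand): gtgcggcgccgtagctaggagcggacgcca
MRPS34 (chr16:1773115-1773144, minus strand): ggaccgctgaggacgcggacccgccatggc
MRPL12 (chr17:81703357-81703386, plus strand): cggctagagcgtcatttccggctcgaatgc
MRPL1 (chr4:77862820-77862849, plus strand): tttcgtgaacgcaatccggagtgcccaaca

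The core members RPS6, RPLP0, RPLP2 and RPL13A opened with TOP letters, as did the parents RPL22, RPL26 and RPS27. The paralog RPL22L1 also did, while RPL26L1, RPS27L and RPL7L1 and the mitochondrial members shown did not. Of the 66 cytosolic members with an entry in the RefSeq table, 46 (69.7%) had TOP letters at an annotated start, against 6 of 69 mitochondrial members (8.7%) and 5.14% of the 27305 genes of that table. The ETS motif CCGGAAG, searched on both strands from 250 bases before to 50 bases after the start, was held by 24 cytosolic members (36.4%), 30 mitochondrial members (43.5%) and 12.2% of all genes. The YY1 core AAGATGG, searched in the same way, was found at 9 cytosolic members (13.6%) and 24 mitochondrial members (34.8%), against 7.11% of all genes. These are matches of letters only.

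Values are FPKM, which divide a gene's fragments by its transcript length in kilobases and by the size of the library, so levels can be compared between genes per length. Each library had between 24143 and 24601 genes above 0. The read depth behind a value is unknown, so no counting error can be given. The 11981 genes whose mean reached 1 FPKM were tested on log2(FPKM + 1) with limma, with Benjamini-Hochberg adjustment over all of them. This scale understates the change of genes with low values. Of the 161 members, 160 passed this filter, and RPL3L, the striated-muscle paralog of RPL3, lay between 0 and 0.04 FPKM. As to cell identity, the 14 RPE markers measured summed to between 443 and 538 FPKM per library, but only 5 or 6 of them reached 1 FPKM in a library. Most of the sum came from the keratins KRT8 (171 to 209 FPKM) and KRT18 (222 to 246 FPKM), which other epithelial cells also express. MITF (15.5 to 18.6 FPKM), OTX2 (27.5 to 31.4 FPKM) and PMEL (1.07 to 1.42 FPKM) were present. BEST1 lay between 0.65 and 57.0 FPKM within Era and between 0.60 and 36.5 FPKM within Era+VK. RPE65, DCT and TYR stayed at or under 0.17 FPKM, and LRAT, MERTK, RLBP1, SERPINF1 and TYRP1 under 1 FPKM in each library. In Era+VK replicates 2 and 3, 14 erythroid markers summed to 241 and 234 FPKM, against 0.31 to 0.63 FPKM in the other 4 libraries. Of these markers 9 and 8 reached 1 FPKM there, and 0 did in the other libraries.

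Cytosolic members were the more abundant set, with a median mean level of 97.8 FPKM against 10.8 FPKM for mitochondrial members. The 5 highest, RPS2, RPL13A, RPL8, RPLP0 and RPL7A, held 23.2% to 24.4% of the cytosolic sum in every library. RPS2, a small-subunit protein at the mRNA entry channel, was measured at 808, 803 and 742 FPKM in Era and 740.4, 884 and 749 FPKM in Era+VK. RPL13A, which also has a described role in repressing inflammatory mRNAs, was measured at 619, 610.2 and 563 FPKM in Era and 560.5, 666 and 545 FPKM in Era+VK. For RPS2 and RPL13A alike, Era+VK replicate 2 was the highest of the 6 libraries.

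At the other end of the cytosolic set, RPS29 had 2.82 to 2.89 FPKM in Era and 2.62 to 3.29 FPKM in Era+VK, and was named after its values were seen. Cytosolic levels per length thus spanned 268-fold over the 82 genes, paralogs included. The core proteins, apart from the stalk, are built into the ribosome in equal numbers. Levels and transcript length had a Spearman correlation of 0.29 over 82 genes of the same libraries. Whether short transcripts such as the lowest ones were measured less fully was not tested. Mitochondrial levels spanned 22.4-fold. MRPS34, a mitochondria-specific small-subunit protein, was highest at 44.9, 44.6 and 41.1 FPKM in Era and 41.4, 47.4 and 41.0 FPKM in Era+VK. MRPL12, the mitochondrial counterpart of the bacterial stalk protein, followed at 36.7, 40.6 and 36.3 FPKM in Era and 36.4, 37.4 and 38.4 FPKM in Era+VK. The groups overlapped for MRPS34 and for MRPL12. MRPL37, MRPL51 and MRPS35 completed the 5 highest, with mean levels from 31.0 to 36.9 FPKM in Era+VK.

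**Figure D1:**
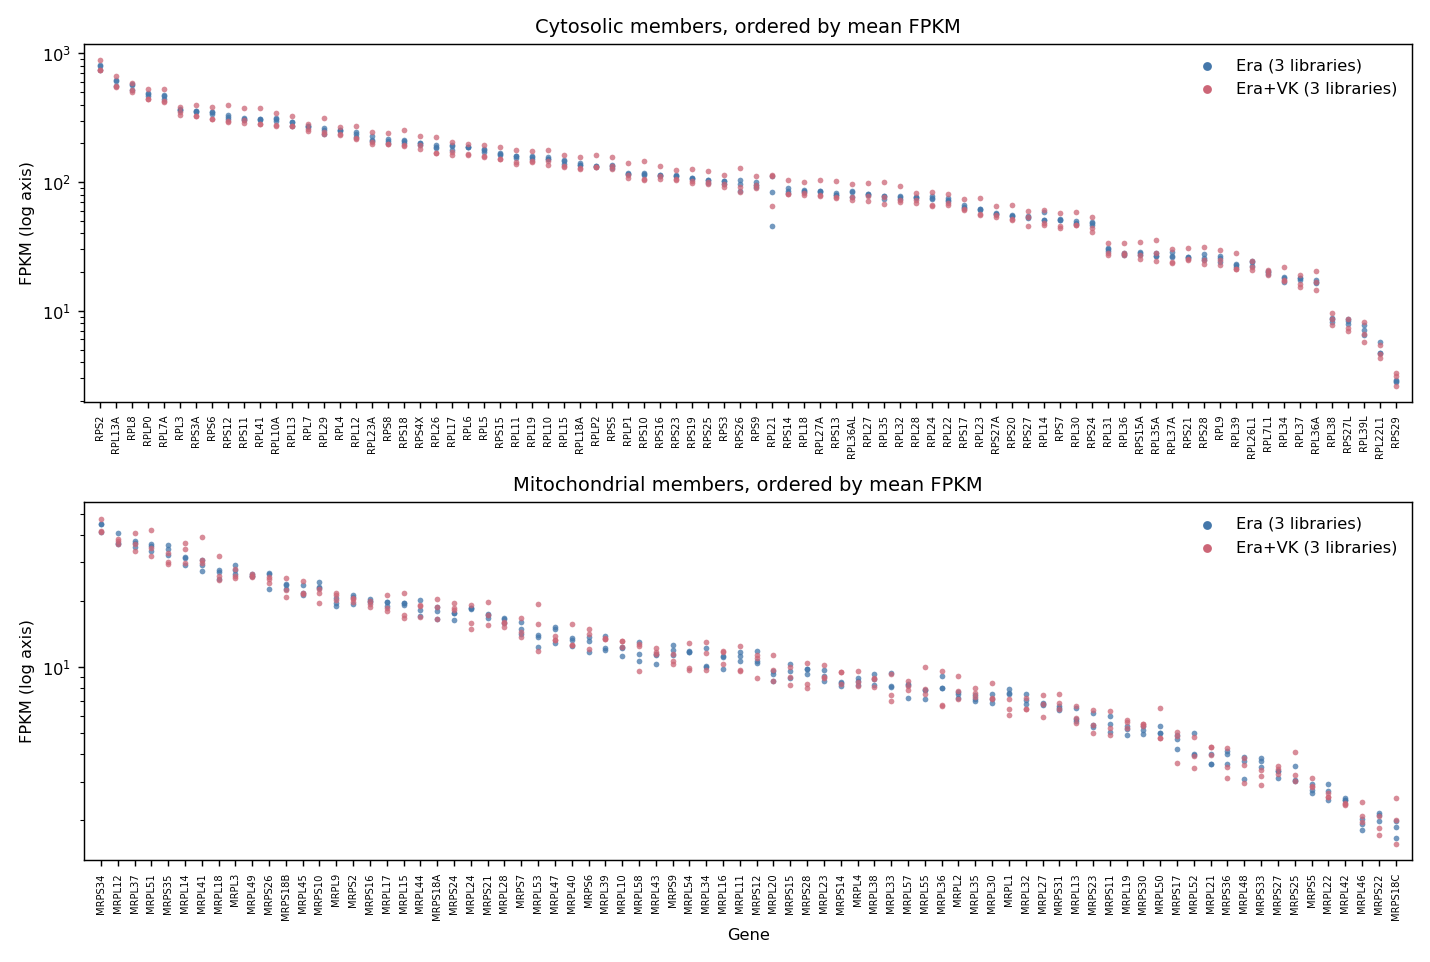
FPKM (log axis) of the 82 cytosolic and 78 mitochondrial members whose mean reached 1 FPKM, ordered by mean; blue points are the 3 Era and red points the 3 Era+VK libraries. The points of a gene lie close together beside the range between genes, which runs from 2.9 to 788 FPKM on average for cytosolic and from 1.9 to 43.4 FPKM for mitochondrial members, and RPL21 stands out with the widest scatter.

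No ribosomal protein gene passed the test between Era+VK and Era. With limma, 0 of 160 members had an adjusted p under 0.05, against 0.618% of all genes tested (74 of 11981). Of these 74, 16 were higher (0.134% of genes tested) and 58 lower (0.484%). The count over all genes was 2 without Era replicate 1 or Era replicate 2, 5 without Era replicate 3 and 42 without Era+VK replicate 3, and 70 or 60 without Era+VK replicate 1 or 2. In each case 0 members were called. At an unadjusted p under 0.05, the counts were 0 of 82 cytosolic and 4 of 78 mitochondrial members, against 15.8% of all genes. Of these 4, 1 was higher, against 10.4% of all genes, and 3 were lower, against 5.42%. The groups did not overlap for 0 cytosolic and 8 mitochondrial members, against 22.1% of all genes. The median log2 fold change was 0.01 for cytosolic members, with 44 higher and 38 lower. For mitochondrial members it was -0.01, with 38 higher and 40 lower, while the median of all genes tested was 0.03, with 63.3% higher. In such bulk samples, a change in RNA per cell and a change in the cells present cannot be told apart.

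The precision of the differences is given by their intervals, which rest on the spread between these 6 libraries. That spread may be technical, so the intervals do not bound what VK1 could change in separate cultures. The 95% interval reached a median of 0.20 on either side of the log2 fold change for cytosolic and 0.16 for mitochondrial members. It lay wholly within 0.5 of 0 for 81 of 82 cytosolic and 77 of 78 mitochondrial members, the exceptions being RPL21 and MRPL53.

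**Figure D2:**
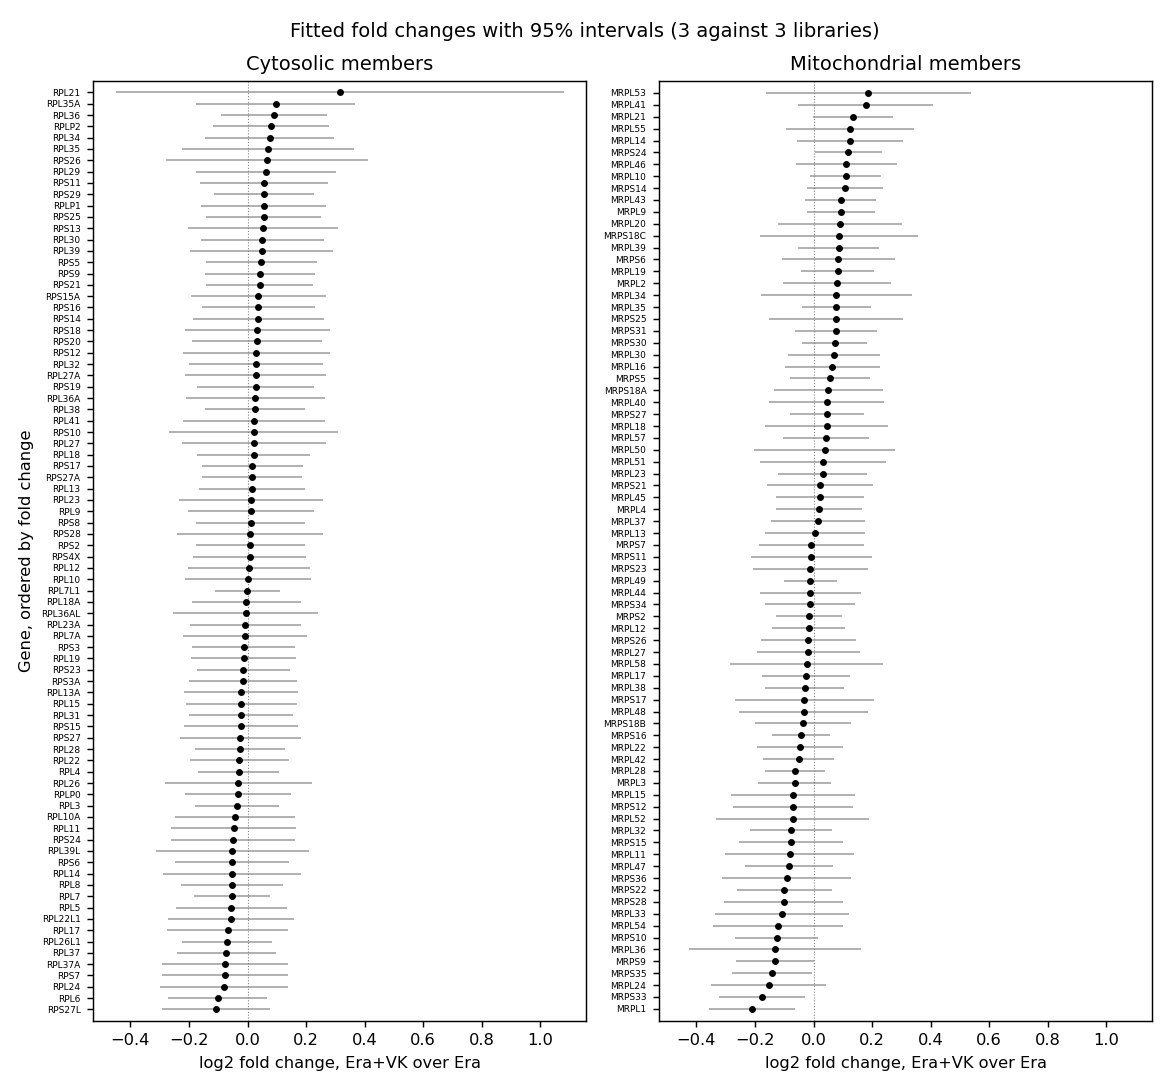
Fitted log2 fold change of Era+VK over Era (points) with its 95% interval (lines) for each member tested, 3 against 3 libraries, ordered by size. Points of both sets lie on both sides of 0 (dotted), and the interval of RPL21, from -0.45 to 1.08, is the widest.

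The Era+VK libraries were split in the cytosolic set. Against the mean of Era, the cytosolic median was -0.10, 0.19 and -0.10 on the log2 scale in Era+VK replicates 1, 2 and 3. The 3 Era libraries lay at 0.003, 0.01 and -0.01, and the medians of all genes tested in Era+VK at 0.03, 0.03 and 0.04. Replicate 2 therefore lay above Era, and replicates 1 and 3 below Era, while the Era libraries were nearly alike.

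Single members followed this order one after another. Era+VK replicate 2 was the highest of the 6 libraries for 78 of 82 cytosolic members, against 25.2% of all genes, and for 47 of 78 mitochondrial members. It exceeded every Era library for 79 cytosolic members, against 40.6% of all genes. Era+VK replicate 1 was below every Era library for 72 cytosolic members, against 25.5% of all genes, and replicate 3 for 69, against 22.1%. The whole order, with replicate 2 above every Era library and replicates 1 and 3 below every one, held for 61 of 82 cytosolic members (74.4%), 10 of 78 mitochondrial members (12.8%) and 3.51% of all genes.

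**Figure D3:**
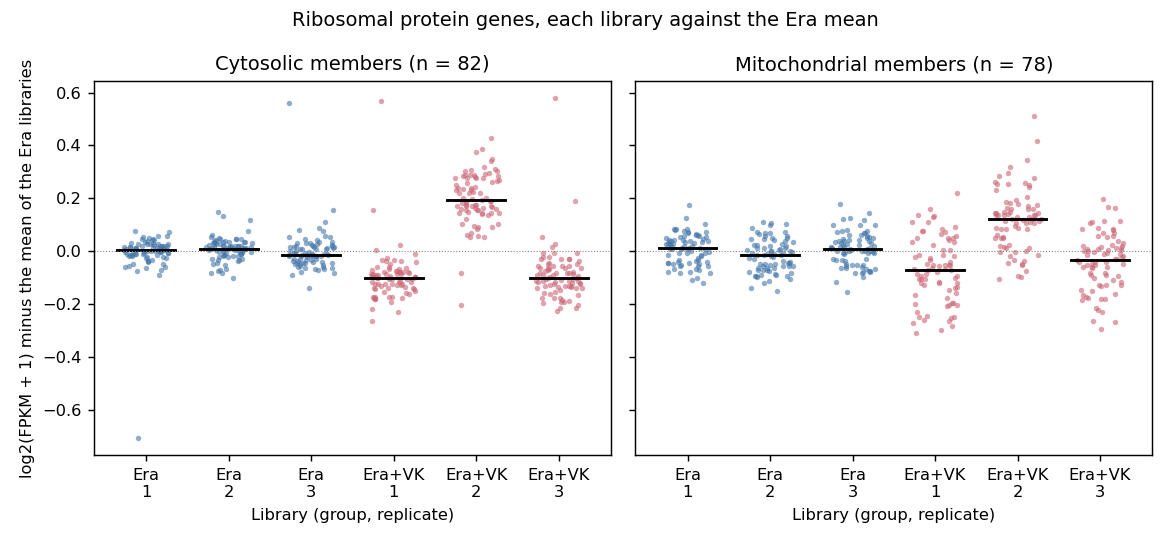
Each point is 1 member in 1 library, as log2(FPKM + 1) minus the gene's mean over the 3 Era libraries; black bars are medians over the 82 cytosolic or 78 mitochondrial members. Cytosolic points form narrow bands near 0 in Era, a raised band in Era+VK replicate 2 (median 0.19) and lowered bands in replicates 1 and 3 (median -0.10 in each), while mitochondrial points shift the same way with more scatter.

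The spread within a group showed the same. The median coefficient of variation of cytosolic members was 2.62% in Era and 13.1% in Era+VK. It was larger in Era+VK for 81 of 82 cytosolic members, against 60.0% of all genes, and for 60 of 78 mitochondrial members, whose medians were 5.14% and 9.39%. As a share of all FPKM, cytosolic members held 5.21%, 5.17% and 4.95% in Era and 4.90%, 5.77% and 4.89% in Era+VK. Mitochondrial members held 0.449%, 0.435% and 0.434% in Era and 0.429%, 0.475% and 0.439% in Era+VK. For both sets, the share in Era+VK replicate 2 was the highest of the 6 and the others overlapped or lay below Era.

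Small and large subunits of the cytosolic ribosome shifted the same way in each Era+VK library. In Era+VK replicates 1, 2 and 3, the small-subunit median against Era was -0.09, 0.22 and -0.09 over 31 genes, and the large-subunit median -0.11, 0.17 and -0.11 over 48 genes. The ratio of the summed small-subunit to large-subunit FPKM ranged from 0.650 to 0.656 in Era and was 0.655, 0.676 and 0.661 in Era+VK. It was thus highest in Era+VK replicate 2. The median log2 fold change was 0.02 for the small subunit, with 22 higher and 9 lower. For the large subunit it was -0.01, with 20 higher and 28 lower, while 36.7% of all genes were lower.

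RPS6, the small-subunit protein phosphorylated by S6 kinase, was measured at 348, 349 and 335 FPKM in Era and 312, 381 and 307 FPKM in Era+VK. Its log2 fold change was -0.05 (SE 0.0835, limma adjusted p = 0.804). The Era values lay between those of Era+VK, with replicate 2 above and replicates 1 and 3 below. RPS7, a small-subunit protein mutated in some cases of Diamond-Blackfan anaemia, was at 52.0, 51.2 and 50.7 FPKM in Era and 45.4, 57.3 and 44.04 FPKM in Era+VK, again with replicate 2 above and replicates 1 and 3 below Era. RPS26 had the largest excess in Era+VK replicate 2 of all cytosolic members, at 128 FPKM against 86.1 to 103 FPKM in Era, and was named after its values were seen.

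The stalk of the large subunit, which recruits elongation factors, is built by RPLP0 with copies of RPLP1 and RPLP2. RPLP0 was measured at 487, 491 and 467 FPKM in Era and 440.3, 532 and 445 FPKM in Era+VK. RPLP1 was at 116, 117 and 115 FPKM in Era and 109, 142 and 115 FPKM in Era+VK. RPLP2 was at 133, 135 and 132 FPKM in Era and 131, 164 and 131 FPKM in Era+VK. In all 3 stalk genes replicate 2 of Era+VK was the highest library, and the log2 fold changes were -0.03, 0.06 and 0.08 with adjusted p of 0.873, 0.812 and 0.694 in limma.

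RPL5 and RPL11 form a particle with 5S ribosomal RNA and can bind MDM2, the negative regulator of p53. RPL5 was measured at 177, 180.5 and 171 FPKM in Era and 160.0, 194 and 157 FPKM in Era+VK. RPL11 was measured at 159, 158 and 155 FPKM in Era and 143, 179 and 138 FPKM in Era+VK. For RPL5 and RPL11 replicates 1 and 3 of Era+VK were lower than all Era libraries, and limma gave adjusted p of 0.785 and 0.841. RPL6, a large-subunit protein, had the lowest adjusted p of the cytosolic set, 0.530, at a log2 fold change of -0.10. It was at 187, 186 and 188 FPKM in Era and 165, 196 and 163 FPKM in Era+VK.

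Among the largest fitted falls after RPS27L and RPL6 stood the large-subunit genes RPL24 and RPL37A and the small-subunit gene RPS7, each with a log2 fold change of -0.08 and an adjusted p of 0.725 to 0.734 in limma. The 5 largest fitted rises were RPL21, RPL35A, RPL36, RPLP2 and RPL34, all of the large subunit, from 0.08 to 0.32. RPL35A, a Diamond-Blackfan anaemia gene, was measured at 26.9, 26.7 and 28.4 FPKM in Era and 24.6, 35.7 and 28.4 FPKM in Era+VK. RPL36 was at 27.2, 27.9 and 27.5 FPKM in Era and 28.03, 33.6 and 27.0 FPKM in Era+VK. For both genes the higher Era+VK mean came from replicate 2. Over the 12 listed Diamond-Blackfan anaemia genes the median fold change was -0.003 on the log2 scale, with 6 higher and 6 lower.

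The mitochondrial members shifted with the cytosolic ones, with more variation between genes. In Era+VK replicates 1, 2 and 3 their median against Era was -0.07, 0.12 and -0.03. By subunit, it was -0.10, 0.11 and -0.04 over 29 small-subunit genes and -0.05, 0.14 and -0.03 over 49 large-subunit genes. The median log2 fold change was -0.01 for members with a bacterial homolog (45 genes), and 0.02 for members specific to mitochondria (30 genes). Of the former 21 were higher and 24 lower, and of the latter 16 were higher and 14 lower.

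MRPL1, a large-subunit protein with a bacterial homolog, had the lowest adjusted p of all members, 0.190 in limma. It was measured at 7.97, 7.64 and 7.54 FPKM in Era and 6.03, 7.16 and 6.43 FPKM in Era+VK (log2 fold change -0.21, SE 0.0632). MRPS33, a mitochondria-specific small-subunit protein, was at 3.83, 3.52 and 3.74 FPKM in Era and 3.19, 3.39 and 2.90 FPKM in Era+VK (log2 fold change -0.18, SE 0.0630, limma adjusted p = 0.244). In MRPL1 and MRPS33 all Era+VK libraries, replicate 2 included, lay below all Era libraries. This order was shared by MRPL42 and MRPS10, which makes 4 lower members of 78, against 7.04% of all genes. MRPS35, a mitochondria-specific small-subunit protein, was at 36.0, 32.5 and 34.4 FPKM in Era and 29.6, 33.1 and 30.2 FPKM in Era+VK, where the groups overlapped. Its unadjusted p was 0.0437 and its adjusted p 0.303 in limma. MRPS9 and MRPL24 were the other 2 of the 5 largest falls, at -0.13 and -0.15.

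In the other direction, all Era+VK libraries lay above all Era libraries for MRPS24, MRPL10, MRPL43 and MRPS30, which is 4 of 78 members against 15.1% of all genes. These 4, with MRPL42 and MRPS10, were named after their values were seen. MRPS24, a small-subunit protein, was measured at 17.6, 16.3 and 17.6 FPKM in Era and 18.1, 19.5 and 18.6 FPKM in Era+VK (log2 fold change 0.12, unadjusted p = 0.0448 and adjusted p = 0.306 in limma). The 5 largest fitted rises, MRPL53, MRPL41, MRPL21, MRPL55 and MRPL14, were all of the large subunit. MRPL53 was at 13.7, 12.3 and 14.04 FPKM in Era and 15.7, 19.4 and 11.8 FPKM in Era+VK, so that its Era+VK libraries lay on both sides of Era. MRPL41 was at 30.6, 27.4 and 29.03 FPKM in Era and 30.7, 39.1 and 29.8 FPKM in Era+VK. For MRPL41 replicate 2 lay far above the other 5 libraries. MRPL21 was at 3.63, 3.60 and 4.0 FPKM in Era and 3.96, 4.34 and 4.32 FPKM in Era+VK, with an adjusted p of 0.326 in limma.

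Paralogs of cytosolic members are close relatives with their own genes, and some differed from their parents in Era+VK replicate 2. RPL26 was measured at 189, 196 and 185 FPKM in Era and 169.9, 225 and 168 FPKM in Era+VK, and its paralog RPL26L1 at 23.8, 22.4 and 24.5 FPKM in Era and 20.7, 24.6 and 22.0 FPKM in Era+VK. Replicate 2 of Era+VK thus exceeded the Era mean by 0.24 on the log2 scale for RPL26 and by 0.06 for RPL26L1. RPS27 was at 53.3, 53.0 and 54.5 FPKM in Era and 53.2, 60.1 and 45.7 FPKM in Era+VK. RPS27L, a p53-responsive paralog, was at 7.90, 8.37 and 8.68 FPKM in Era and 6.93, 8.71 and 7.37 FPKM in Era+VK. Replicate 2 exceeded the Era mean by 0.16 for RPS27 and by 0.06 for RPS27L, which had the largest fitted fall of the cytosolic set (-0.11, limma adjusted p = 0.544).

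RPL39, which lines the peptide exit tunnel, was measured at 22.0, 22.7 and 23.1 FPKM in Era and 21.3, 28.4 and 21.1 FPKM in Era+VK. Its paralog RPL39L, known from the testis, was at 7.05, 6.54 and 7.73 FPKM in Era and 5.74, 6.65 and 8.23 FPKM in Era+VK, with replicate 3 and not replicate 2 highest. For RPL22 and its paralog RPL22L1 replicate 2 exceeded the Era mean by 0.14 and 0.10, and for RPL36A and RPL36AL by 0.26 and 0.25. Among these parents RPL7 had the smallest excess, 0.05, the same as that of RPL7L1, a paralog with a role in ribosome assembly. RPL3 had an excess of 0.08. Core members such as RPL6 (0.07) and RPL4 (0.09) also lay below the lower quartile of the cytosolic set (0.15). A small excess in this 1 library was thus not particular to paralogs. RPL10, which closes the assembly of the large subunit, was at 156, 152 and 151 FPKM in Era and 137, 179 and 146 FPKM in Era+VK.

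Replicate 2 was the highest library of Era+VK for cytosolic members with TOP letters and for those without. In Era+VK replicates 1, 2 and 3 the median against Era was -0.10, 0.22 and -0.10 for the 46 members with TOP letters at an annotated start. It was -0.13, 0.17 and -0.11 for the 20 members with other starts. These include the paralogs RPL26L1, RPS27L and RPL7L1, but also core members such as RPL3, RPL4, RPL6 and RPS7. The letters were read only at the annotated start base, so the 20 members cannot be taken as mRNAs without a TOP motif. The 13 listed TOP mRNAs of other genes, mostly translation factors but also HNRNPA1, NAP1L1 and TPT1, had medians of -0.07, 0.03 and -0.13 in these libraries.

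RPL21 had another order of libraries than most of the set. It was measured at 45.9, 83.8 and 112 FPKM in Era and 113, 65.5 and 113 FPKM in Era+VK (log2 fold change 0.32, SE 0.330, limma adjusted p = 0.683). Era+VK replicate 2 was here the lowest library of its group, and Era replicate 1 the lowest of all 6. Its pseudogene copies RPL21P16 and RPL21P75, looked at after these values were seen, had the opposite order. RPL21P16 was at 301, 192 and 130.3 FPKM in Era and 91.6, 342 and 86.9 FPKM in Era+VK. RPL21P75 was at 191, 123 and 79.7 FPKM in Era and 54.1, 226 and 51.0 FPKM in Era+VK. The sum of RPL21 and both copies was 538, 399 and 322 FPKM in Era and 258, 634 and 251 FPKM in Era+VK, with replicate 2 of Era+VK again highest. Near-identical copies can share reads, so the value of RPL21 alone is uncertain.

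**Figure D4:**
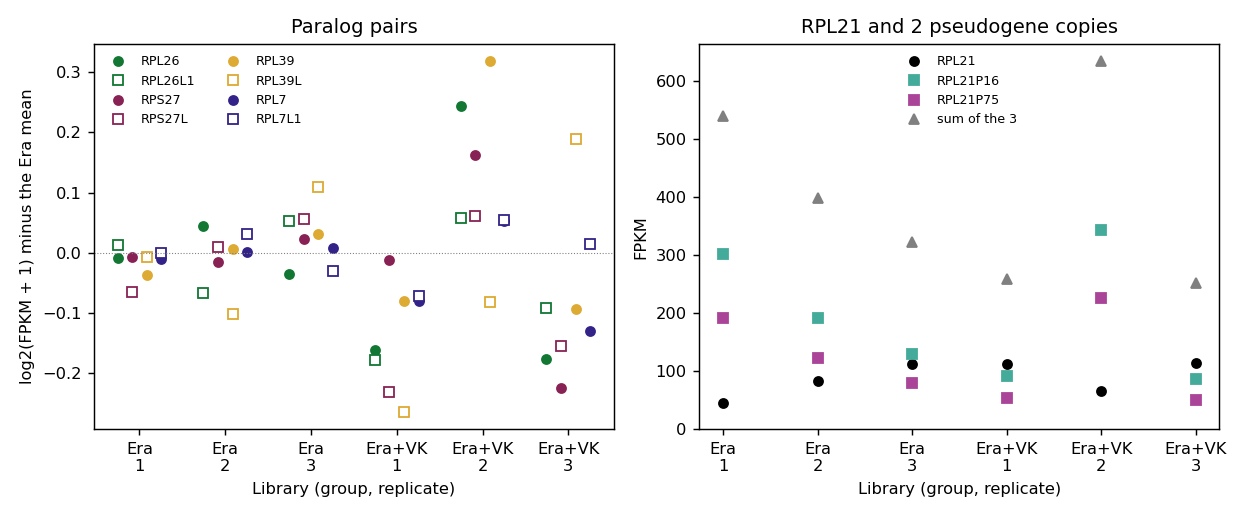
Left, log2(FPKM + 1) minus the Era mean of 4 parent genes (filled circles) and their paralogs (open squares) in each library; RPL26, RPS27 and RPL39 lie higher in Era+VK replicate 2 than their paralogs, and RPL7 and RPL7L1 lie together there at 0.05. Right, FPKM of RPL21, its pseudogene copies RPL21P16 and RPL21P75 and their sum; RPL21 is low where the copies are high.

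Ribosomal proteins are often met with such copies, and 490 rows with pseudogene symbols of cytosolic members summed to between 2060 and 2943 FPKM per library. The highest sum was again that of Era+VK replicate 2. With the copies added to their parents, an alternative chosen after seeing the data, the cytosolic medians against Era were -0.10, 0.20 and -0.10 in the 3 Era+VK libraries.

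Of the 6 libraries left out singly, Era+VK replicate 2 moved the cytosolic median most. Without Era+VK replicate 2, it was -0.10, and 80 of 82 cytosolic members were lower, against 39.4% of all genes. In limma, 39 cytosolic members then had an unadjusted p under 0.05 and were lower, against 7.69% of all genes, and 62 did not overlap with Era and were lower, against 14.0%. The adjusted p remained above 0.05 for all 160 members, the lowest being 0.0672 for cytosolic and 0.0646 for mitochondrial members, with 60 genes called over all (0.501%). The mitochondrial median was then -0.06, with 56 of 78 lower. Without Era+VK replicate 1, the cytosolic median was 0.05, with 64 members higher and 18 lower, while 35.8% of all genes were lower. Without Era+VK replicate 3, it was also 0.05, with 69 higher and 13 lower, while 38.3% of all genes were lower. The direction of the cytosolic set thus depended on which Era+VK library was left out. With all 6 libraries, other scalings moved the cytosolic median between -0.02 (length and GC trend removed) and 0.03 (libraries rescaled to a common sum). The mitochondrial median moved between -0.03 and 0.01 in the same settings.

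Other measures of the libraries were set beside this order. The erythroid markers were present in Era+VK replicates 2 and 3, of which replicate 2 had high and replicate 3 low cytosolic levels. With both left out, the cytosolic median of replicate 1 alone against Era was -0.10, with 78 of 82 lower, against 42.6% of all genes. This value sets 1 library against 3, and its own group gives no spread. Mitochondrially encoded transcripts held 16.1% of all FPKM in Era+VK replicate 2, 16.4% and 16.0% in replicates 1 and 3, and 16.2% to 18.5% in Era. After removal of each library's trend with transcript length and GC content, the cytosolic medians against Era were -0.10, 0.12 and -0.12 in Era+VK, and after quantile normalization -0.04, 0.15 and -0.04. The part of depth, RNA quality or culture in the order was not tested.

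Ribosome components that carry other symbols were read as well. FAU, a fusion of a ubiquitin-like and a small-subunit protein, was measured at 81.9, 80.3 and 79.8 FPKM in Era and 75.2, 98.2 and 79.9 FPKM in Era+VK. Era+VK replicate 2 was the highest library for it. RPSA, also known as the laminin receptor, was at 177, 168 and 162 FPKM in Era and 149, 182 and 159 FPKM in Era+VK. RACK1, a scaffold on the small subunit, was at 235, 242 and 238 FPKM in Era and 209, 241 and 208 FPKM in Era+VK, so that replicate 2 only reached the level of Era.

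DAP3, a GTP-binding protein of the mitochondrial small subunit, was measured at 14.8, 14.2 and 14.6 FPKM in Era and 12.5, 13.6 and 12.8 FPKM in Era+VK. All its Era+VK libraries were below all Era libraries, at a log2 fold change of -0.15 (SE 0.0474, limma adjusted p = 0.198). Of the mitochondrial ribosomal RNAs, MT-RNR2 of the large subunit was at 1946, 2028 and 2187 FPKM in Era and 1840, 1849 and 1839 FPKM in Era+VK, with an adjusted p of 0.295 in limma. MT-RNR1 of the small subunit was at 318, 329 and 352 FPKM in Era and 291, 328 and 312 FPKM in Era+VK, with an adjusted p of 0.456. The Era+VK values of MT-RNR2 were all below Era, and those of MT-RNR1 overlapped with Era.

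Of the wider pathway lists, 0 genes passed the test in either direction with limma, against 0.618% of all genes. For 53 ribosome biogenesis and RNA polymerase I genes the median log2 fold change was -0.03, with 37 lower and 16 higher, while 36.7% of all genes were lower. Of these 53, 6 had an unadjusted p under 0.05, all of them lower, against 5.42% of all genes. Mitoribosome assembly factors (28) had a median of 0.05, with 21 higher and 7 lower, against 63.3% of all genes higher, and 3 had an unadjusted p under 0.05, all of them higher, against 10.4% of all genes. The other TOP mRNAs (13) had a median of -0.05, with 11 lower, and 2 had an unadjusted p under 0.05, both lower. The mitochondrially encoded mRNAs (13), which the mitochondrial ribosome translates, had a median of -0.14, with 13 lower, and 5 had an unadjusted p under 0.05, all of them lower, against the same 5.42%. Their medians against the Era mean were -0.12, 0.02 and 0.11 in the Era libraries and -0.17, -0.09 and -0.18 in Era+VK, so that Era replicate 1 lay among the Era+VK libraries. Mitochondrial translation factors (15) had a median of 0.01, and ribosome rescue and quality control genes (7) one of 0.01.

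The list of mTORC1, S6 kinase and TOP control genes (15 tested) had a median of 0.005, with 8 higher and 7 lower. At an unadjusted p under 0.05 in limma, 2 were higher, against 10.4% of all genes, and 3 were lower, against 5.42%. The 2 higher were EIF4EBP2 (log2 fold change 0.18) and RPS6KB2 (0.20). The 3 lower were DDIT4 (-0.18), SESN2 (-0.19) and EIF4EBP1. All were named after their values were seen. EIF4EBP1, an inhibitor of cap-dependent translation that mTORC1 switches off, was measured at 102, 111 and 107 FPKM in Era and 55.3, 73.5 and 74.2 FPKM in Era+VK. Its log2 fold change was -0.66 (SE 0.109), at an adjusted p of 0.0519 in limma, and it was named after its values were seen. In Era+VK replicates 1, 2 and 3, the medians of this list against Era were 0.01, -0.04 and 0.04. For ribosome biogenesis genes they were -0.09, 0.002 and -0.07, with replicate 2 the highest of its group and replicates 1 and 3 below the medians of the Era libraries (-0.02 to 0.03). For mitoribosome assembly genes they were 0.02, 0.08 and 0.07.

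**Figure D5:**
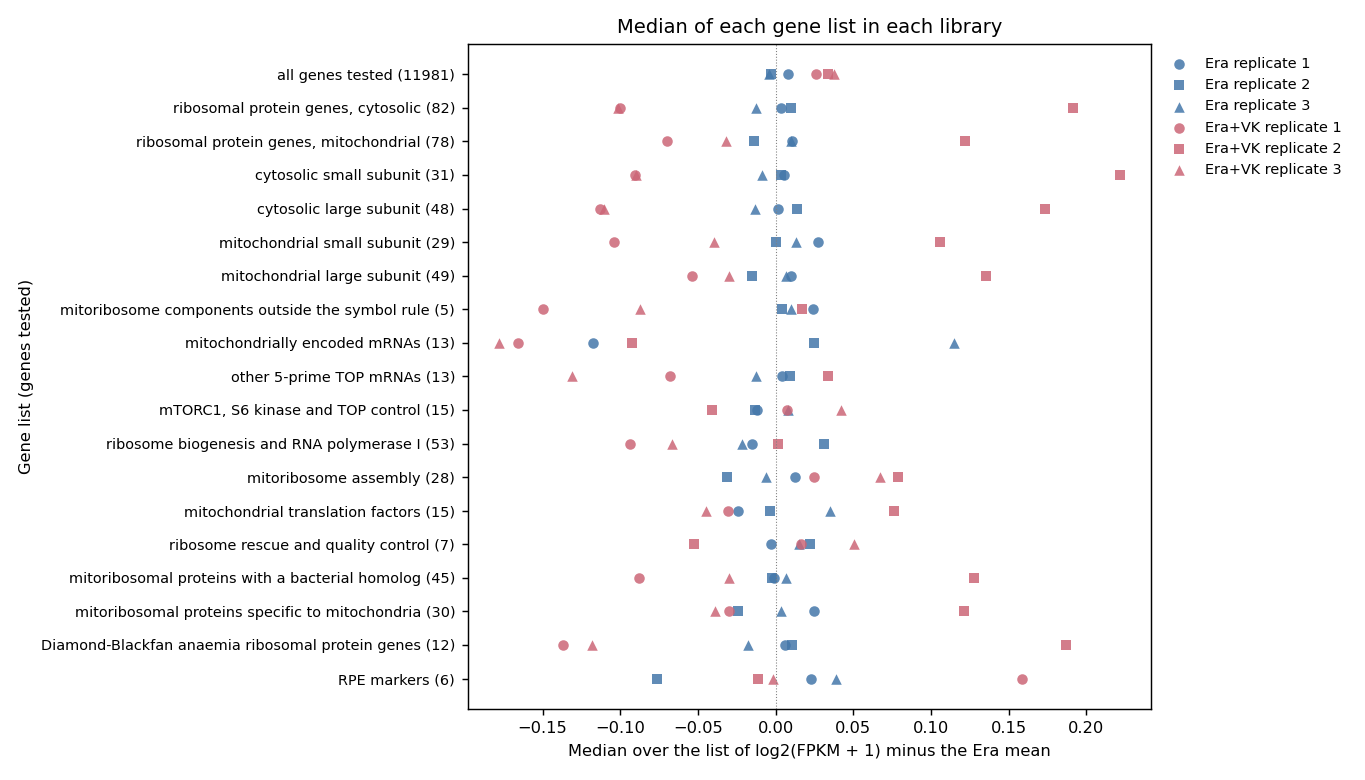
Median over each gene list of log2(FPKM + 1) minus the Era mean, 1 symbol per library (blue Era, red Era+VK; circle, square and triangle for replicates 1, 2 and 3), for lists with at least 5 genes tested. The red square, Era+VK replicate 2, lies to the right for both ribosomal protein sets and their subunits (0.11 to 0.22). For the ribosome biogenesis list it lies at 0.002, among the Era libraries and above Era+VK replicates 1 and 3 (-0.09 and -0.07).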

How the data were processed

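RNA-seq was measured in 6 libraries, 3 Era and 3 Era+VK. The authors deposited 1 file of FPKM values for each library. Per the submitters' processing notes, reads went through cutadapt, HISAT2 and StringTie 2.1.6. The notes name mm10, a mouse build, while the identifiers are human, so the build used is not clear. The cell line label counts upwards from library to library, while all titles give ARPE-19, and all were taken as that. FPKM are relative to a library's mapped fragments. A search of low values for whole-read steps had no reference or threshold and gave no depth. Depth is therefore unknown, and no count model was used.

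The test was limma 3.58.1 (eBayes with trend, in R 4.3.3) on log2(FPKM + 1), without a replicate term, over genes whose mean reached 1 FPKM. P-values were adjusted after Benjamini-Hochberg and called under 0.05. The fit was tested on simulated data. GENCODE 29 (GRCh38) gave the lengths and GC content of transcripts through the Ensembl identifiers. Of the members, 17 cytosolic and 9 mitochondrial ones had no entry in the RefSeq promoter table.

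Members and gene lists were chosen with earlier results of these data known. Named were members with an adjusted p under 0.05, the 5 largest rises and falls and the 5 highest levels of each set, members under the filter, 7 paralog pairs, the stalk genes, RPS6, RPL5, RPL11 and MRPL12. From other lists RPSA, FAU, RACK1, DAP3, MT-RNR1 and MT-RNR2 were named, and 1 gene of the rule is not reported here. Alternatives were other filters, pseudocounts and scalings, the replicate number as a block, libraries left out, and pseudogene copies added.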

Additional observations from a re-analysis of the deposited data

How the results depend on the processing

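No member was called under any alternative, with an adjusted p under 0.05 as the limit in limma. Over all genes, 74 were called. The count was 1 with no filter on low genes, 122 with a minimum of 1 FPKM in every library, 112 after quantile normalization, 135 after removal of the length and GC trend and 35 with Era+VK replicates 2 and 3 left out. With the replicate number as a block it was 42. Each gene's deviations from its group mean correlated at 0.0709, 0.103 and 0.0210 between same-numbered libraries. Between libraries of different numbers the correlations ran from -0.114 to 0.0401. These values do not decide whether the numbers are pairs. The numbers were not taken as pairing in the main fit, and the block called no member. With 1 library left out, the count ranged from 2 to 70, at 2 without Era replicate 1, 2 without Era replicate 2, 5 without Era replicate 3 and 42 without Era+VK replicate 3. In the same fits the cytosolic median ranged from -0.10 to 0.05 and the mitochondrial median from -0.06 to 0.05. The lowest values were those without Era+VK replicate 2. The share of all FPKM in mitochondrial members, Era+VK minus Era, was 0.0082 percentage points, and -0.0104 with Era+VK replicates 2 and 3 left out. Directions of single members turned, none of them called in either setting, and the cause was not tested. As log2 fold changes, they turned with Era+VK replicates 2 and 3 left out for MRPL14 -0.042, MRPL37 -0.11, MRPL51 -0.019, RPL10 -0.16, RPL34 -0.0503, RPL35A -0.14, RPL39 -0.079, RPLP1 -0.10, RPLP2 -0.024 and RPS2 -0.082. After the length and GC trend was removed they turned for MRPL37 -0.012, MRPL51 -0.000073, RPL10 -0.0295 and RPS2 -0.018. With pseudogene copies added, an alternative chosen after seeing the data, they turned for RPL10 -0.028, RPL21 -0.24, RPL39 -0.032, RPL7L1 0.0014, RPS2 -0.013 and RPS7 0.0022. Quantile normalization turned RPL13A 0.016, RPL26 0.014, RPL36A -0.012, RPL7 0.0052 and RPL7A 0.0092. Rescaling libraries to a common sum turned MRPL12 0.0042, MRPS34 0.0099, RPL13A 0.00015, RPL36AL 0.014, RPL7A 0.012 and RPL7L1 0.021. With 1 library left out at a time, the sign turned and values ranged as follows: MRPL12 -0.046 to 0.033, MRPL37 -0.059 to 0.074, MRPL51 -0.076 to 0.12, MRPS34 -0.077 to 0.025, RPL10 -0.11 to 0.083, RPL11 -0.16 to 0.023, RPL13A -0.11 to 0.033, RPL21 -0.039 to 0.60, RPL22 -0.11 to 0.024, RPL22L1 -0.14 to 0.021, RPL26 -0.17 to 0.041, RPL3 -0.10 to 0.013, RPL34 -0.0400 to 0.14, RPL35A -0.045 to 0.21, RPL36 -0.0033 to 0.15, RPL36A -0.092 to 0.13, RPL36AL -0.13 to 0.079, RPL39 -0.086 to 0.12, RPL39L -0.17 to 0.054, RPL5 -0.15 to 0.00025, RPL7A -0.11 to 0.051, RPL7L1 -0.028 to 0.035, RPLP0 -0.12 to 0.015, RPLP1 -0.059 to 0.13, RPLP2 -0.027 to 0.13, RPS2 -0.074 to 0.054, RPS27 -0.12 to 0.076 and RPS6 -0.15 to 0.0036. Depth is unknown, so what it limits could not be stated.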

Other observations

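Rows that overlap or copy cytosolic members were uneven between libraries of 1 group. They were picked after their values were seen. The RPL36A-HNRNPH2 readthrough row was listed at 0.24, 42.5 and 41.6 FPKM in Era and 1.32, 5.66 and 36.3 FPKM in Era+VK, while RPL36A itself stayed between 14.6 and 20.3 FPKM. The RPL17-C18orf32 readthrough row was listed at 0 in Era+VK replicate 2 and at 6.52 to 11.8 FPKM in the other libraries. The pseudogene copy RPL14P1 had 48.7 FPKM in Era replicate 2, against 94.8 to 135 FPKM elsewhere, and RPL14 had 58.5 FPKM there, against 50.7 and 51.1 FPKM in the other Era libraries.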
